A study of Arabidopsis thaliana with 4 samples.

Results

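AT4G33720, AT2G38870 and AT2G15220 encode secreted proteins of the pathogenesis-related type in Arabidopsis thaliana. They were picked from earlier results of the same arrays because all 3 were high in the ku80 mutant, and they are 3 of 13286 genes with a named probe set. RNA from whole plants of accession Ws-2 was hybridised to ATH1 arrays, on which a set of short oligonucleotide probes reports each transcript. There were 4 groups: ku80 with bleomycin, ku80 without bleomycin, wild type with bleomycin and wild type without bleomycin. Both ku80 groups carry a T-DNA insertion in AT1G48050 and are 1 mutant line. Treated plants received bleomycin, a drug that breaks DNA strands, at 1 mg per litre for 3 days. All plants were at growth stage 1.06 and grew on MS medium at 23 °C with 16 hours of light. Each group is 1 array of RNA pooled from 20 plants, so no value has a replicate error, and differences between arrays are given as values without a test unless limma is named. Per its title, the series was about how DNA double strand breaks are repaired when end joining is defective.

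Pathogenesis-related proteins are a mixed set of small, mostly secreted plant proteins that build up outside the cell during infection and in other stresses. Type 1 belongs to the CAP superfamily (cysteine-rich secretory proteins, antigen 5 and PR-1), and PR1 itself is the common marker of salicylic acid signalling. Type 6 proteins are small inhibitors of serine proteinases, such as those an attacker releases. Basic secretory proteins resemble a tobacco protein that is made in response to virus infection. KU80 is one partner of the Ku heterodimer, which holds broken DNA ends for non-homologous end joining.

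Values are intensities after each array was divided by a scale factor. The floor, an intensity of 28.0, was the level to which lower values were raised before log2 differences were taken. Of 22746 gene probe sets 15334 lay above it on at least 1 array and are called measured. All 3 genes lay above it on all 4 arrays. No probe set was named for KU80 in the tables used, so the insertion could not be checked by its transcript. As a check of the tissue, the leaf gene RCA (rubisco activase) was at 1696 to 2666 over the arrays and the root gene PYK10 at 1791 to 2487. The other named root marker, EXPA7, was at the floor on 3 arrays, and other leaf, flower and seed markers were not analysed here. On the array of wild type without bleomycin, 17 of 18 spike-in control probe sets were at their dimmest. They read a small number of added bacterial and phage transcripts, several probe sets to each, so they are not 18 separate observations. Relative to that array their median was 1.43-fold brighter in ku80 with bleomycin, 1.89-fold in ku80 without bleomycin and 1.72-fold in wild type with bleomycin. That array is also where each of the 3 genes was lowest, so values after scaling on the spike-in controls are given beside the main ones.

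AT4G33720, the CAP gene, had a scaled intensity of 224 in ku80 with bleomycin and 651 in ku80 without it, against 189.8 in wild type with bleomycin and 44.4 in wild type without it. The array of untreated ku80 stood far above the others and that of untreated wild type far below, while the 2 treated arrays lay close together. The highest value was 14.7-fold above the lowest.

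AT2G38870, the proteinase inhibitor gene, had scaled intensities of 677 in ku80 with bleomycin and 1002 in ku80 without it, against 439 in wild type with bleomycin and 122 in wild type without it. The order of the arrays was that of AT4G33720, with a smaller span of 8.19-fold. For all 3 genes both ku80 arrays lay above both wild type arrays, as at 12.0% of measured probe sets, and untreated wild type was the lowest array, as at 29.9%. The choice of genes that were high in ku80 favours both.

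AT2G15220, the basic secretory protein gene, had scaled intensities of 414 in ku80 with bleomycin and 410.4 in ku80 without it, against 113 in wild type with bleomycin and 62.3 in wild type without it. Here the arrays fell into a high pair, ku80, and a low pair, wild type, and the 2 ku80 arrays were nearly equal. The suffix of its probe set (s_at) marks probes shared with related transcripts, so its values may include a close relative. AT2G15130, the other listed gene of the family, has its own probe set, which stayed under the floor on every array (at most 8.19).

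**Figure D1:**
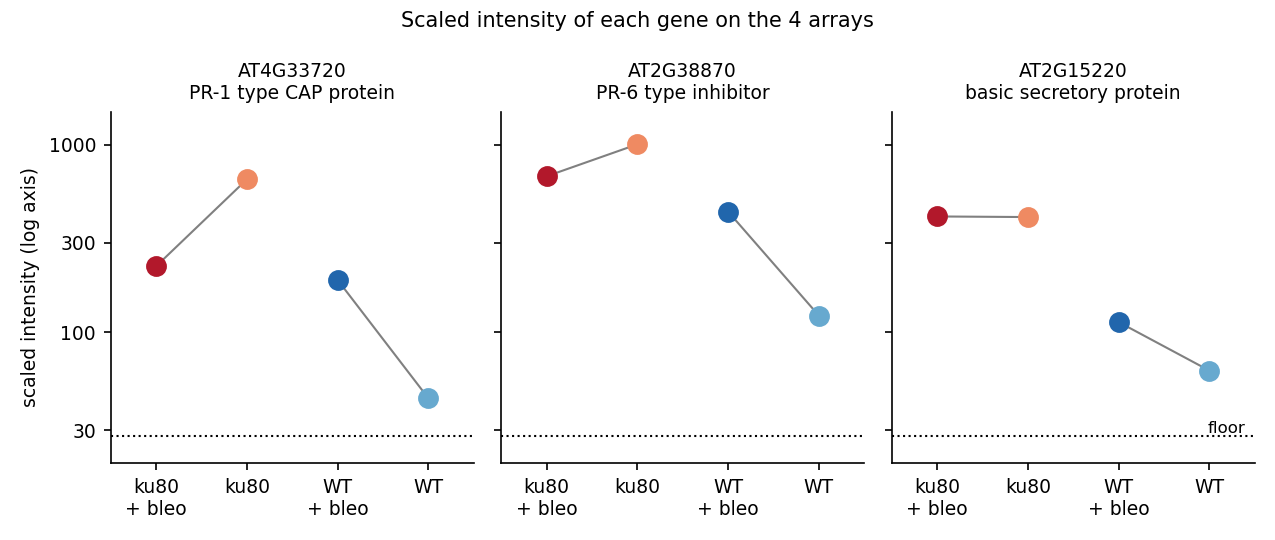
Scaled intensity (log axis) of AT4G33720, AT2G38870 and AT2G15220 on the 4 arrays, 1 point per array, with grey lines joining the arrays of 1 genotype and the floor of 28.0 dotted. In each panel untreated wild type is lowest, and the treated ku80 and wild type arrays are close for AT4G33720 (224 and 189.8) but apart for AT2G15220 (414 and 113).

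Without bleomycin, ku80 was above wild type 14.7-fold at AT4G33720, 8.19-fold at AT2G38870 and 6.59-fold at AT2G15220. The genes were chosen as high in ku80, so these values are part of that choice. Among measured probe sets ordered by this difference they stood at places 9, 31 and 45 from the top, and 2.53% of measured probe sets were at least 2-fold higher. The probe sets next above and below had folds of 14.8 and 14.6 around AT4G33720, 8.80 and 7.93 around AT2G38870, and 6.60 and 6.57 around AT2G15220. The genes thus lie within a continuous run of values with no gap around any of them. Scaled on the spike-in controls, the folds were 7.69, 4.29 and 3.45. That scaling moved the median of all measured probe sets by -0.87 on the log2 scale, so relative to other genes the differences were much the same.

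With bleomycin, ku80 was above wild type 3.66-fold at AT2G15220, 1.54-fold at AT2G38870 and 1.18-fold at AT4G33720. Since the genes were chosen as high in ku80, the direction of this comparison is not independent of the choice either. Only AT2G15220 of the 3 passed 2-fold here, where 1.87% of measured probe sets did, and 0 were 2-fold lower, against 2.35%. AT2G15220 stood at place 14 from the top. AT4G33720, first of the 3 without the drug, was last with it, at place 4000. AT2G38870 stood at place 1228. On the spike-in scale the folds were 4.49, 1.90 and 1.45, in the same order. The control of RNA quality that compares the 3' and 5' ends of ubiquitin transcripts was 1.53 and 1.42 in ku80 with and without bleomycin and 1.21 and 1.17 in wild type with and without it. The same control for GAPDH was 1.19 and 1.09 in ku80 and 1.13 and 1.12 in wild type, and for actin 1.29 and 1.38 in ku80 and 1.24 and 1.299 in wild type, so the genotypes overlapped for these 2. The part of RNA quality in the differences between genotypes was not tested. In whole plants, more cells that express a gene and more RNA per cell cannot be told apart.

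**Figure D2:**
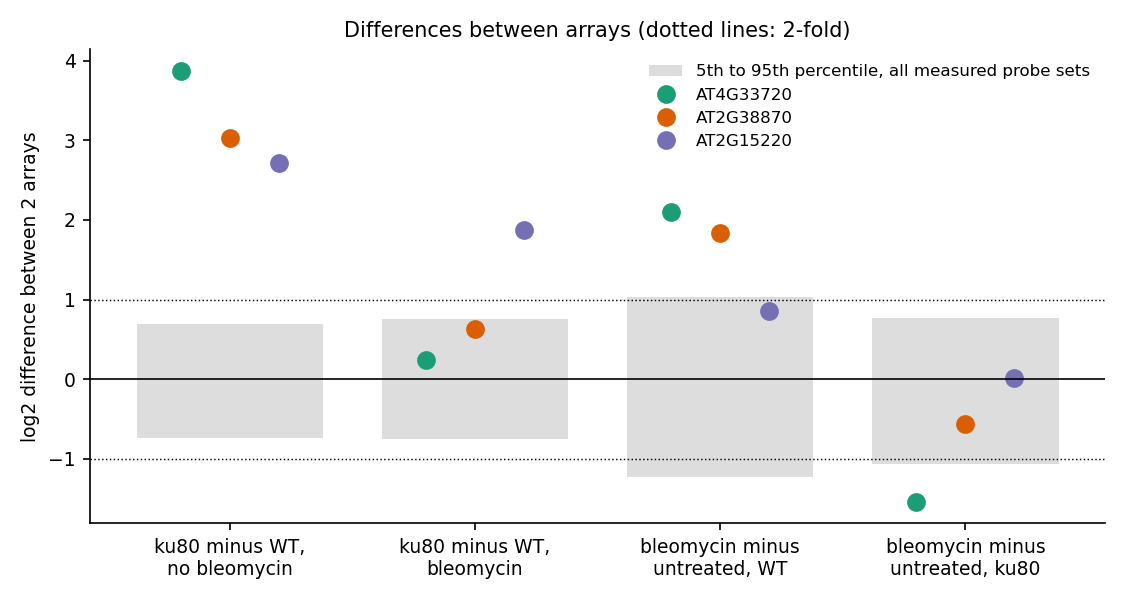
Log2 differences between pairs of arrays for the 3 genes, with the 5th to 95th percentile of all measured probe sets in grey and 2-fold as dotted lines. All 3 genes lie above 2-fold for ku80 minus wild type without bleomycin, and AT2G15220 alone of them does with bleomycin (1.87).

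In wild type, the array with bleomycin was above the one without it 4.27-fold at AT4G33720, 3.59-fold at AT2G38870 and 1.81-fold at AT2G15220. So 2 of the 3 passed 2-fold, where 5.50% of measured probe sets did, and 0 were 2-fold lower, against 8.39%. The 2 stood at places 87 and 117 from the top, and AT2G15220 at place 1234. The genes were chosen as high in ku80, and this comparison uses the untreated wild type array, where they were lowest. Its direction is therefore not independent of the choice. On the spike-in scale the folds were 2.43, 2.03 and 1.03, against a median shift of all measured probe sets of -0.74 on the log2 scale. Relative to that median the log2 differences were 2.02, 1.77 and 0.79.

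In ku80, the array with bleomycin was below the one without it 2.90-fold at AT4G33720 and 1.48-fold at AT2G38870, and AT2G15220 differed by 1.01-fold. AT4G33720 alone of the 3 was at least 2-fold lower, as were 5.61% of measured probe sets, and 0 of the 3 were 2-fold higher, against 2.49%. AT4G33720 stood at place 263 from the bottom. This comparison shares the untreated ku80 array with the choice of the genes, in which they were high. With the spike-in scale, AT4G33720 was 2.18-fold lower, AT2G38870 1.11-fold lower and AT2G15220 1.34-fold higher, where the median of all measured probe sets was 0.30 on the log2 scale.

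The additive fit takes the mean of the 2 genotypes' responses to bleomycin as its effect. The choice of the genes did not use that mean. The SE and p rest partly on the gene's own difference between the responses and partly on the spread of other probe sets of similar intensity. The gene's own difference holds that between the untreated ku80 and wild type arrays, and the genes were chosen as high in ku80. The choice can therefore widen the SE of these genes and raise their p, and how far it did was not tested. limma with Benjamini-Hochberg adjustment over all measured probe sets called 2.22% of probe sets as rising and 4.62% as falling with bleomycin, and none of the 3 genes. AT2G38870 had an effect of 0.64 on the log2 scale (SE 0.41, adjusted p = 0.418 in limma). AT2G15220 had 0.44 (SE 0.29, adjusted p = 0.439 in limma) and AT4G33720 0.28 (SE 0.52, adjusted p = 0.832 in limma). The responses of AT4G33720 and, with a smaller fall in ku80, of AT2G38870 ran in opposite directions in the 2 genotypes. That lowers the means of both genes as well. A p above the threshold does not show that the drug left these genes alone.

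The response in ku80 minus that in wild type was -3.63 on the log2 scale at AT4G33720, -2.41 at AT2G38870 and -0.85 at AT2G15220. AT4G33720 stood at place 14 from the most negative of 15334 and AT2G38870 at place 88. AT4G33720 was one of 36 probe sets (0.235%) that were at least 2-fold higher with the drug in wild type and at least 2-fold lower with it in ku80. The difference between the responses holds the untreated ku80 minus wild type difference with its sign reversed. The choice of the genes thus favours negative values, these places and this pattern. On the spike-in scale the differences were -2.41, -1.18 and 0.38, where the median of all measured probe sets was 1.08, so the sign for AT2G15220 turned with that shift of all genes. Relative to the median its difference was -0.70. With 1 array per group these differences could not be tested.

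**Figure D3:**
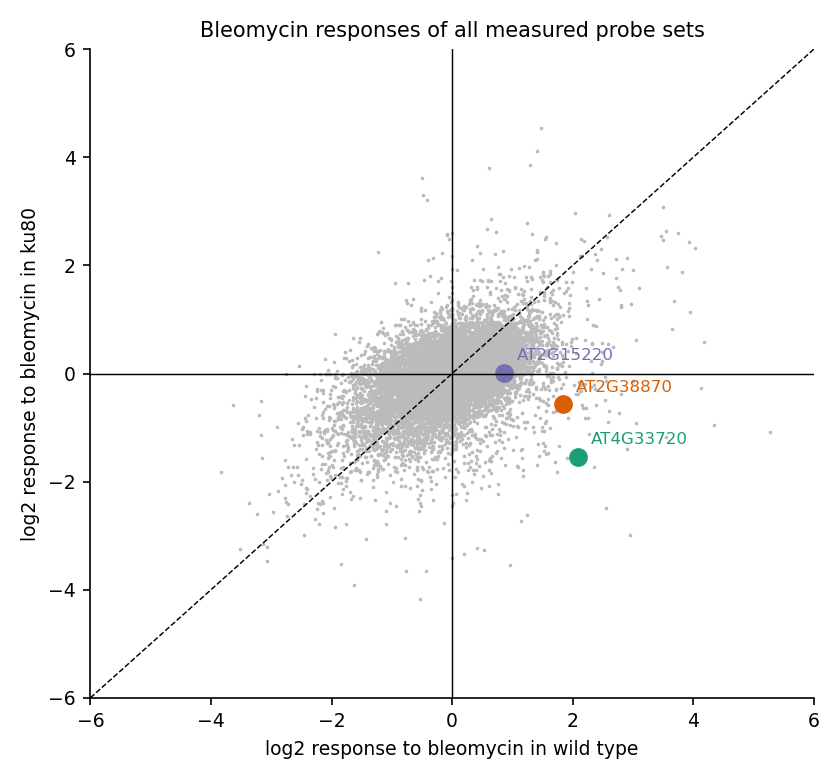
Log2 response to bleomycin in wild type (x) and in ku80 (y) for all measured probe sets (grey), with the 3 genes in colour and the dashed line marking equal responses. AT4G33720 (2.10 and -1.54) and AT2G38870 (1.84 and -0.57) lie in the quadrant that is higher in wild type and lower in ku80, and AT2G15220 (0.86 and 0.01) lies on its upper edge.

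Few relatives of the 3 genes were measured. Of 22 listed CAP genes 19 were named on the array, 10 were measured and 2 lay above the floor on all arrays, AT4G33720 and AT5G66590. The median difference of the 10, ku80 minus wild type without bleomycin, was -0.10 on the log2 scale, against 0.00 over all measured probe sets. Only AT4G33720 and AT5G66590 had both untreated arrays above the floor. At the others the floor limits the size of the difference, and so this median. AT4G33720 was the 1 gene of the 10 past 2-fold, where 2.53% of all measured probe sets were higher and 2.09% lower by that much. AT2G19970, another PR-1 type gene, was at 62.5 in ku80 with bleomycin and 14.8, under the floor, in ku80 without it, against 191 in wild type with bleomycin and 50.6 in wild type without it. It was thus higher with bleomycin in both genotypes and lower in ku80 under both conditions. In limma it rose with bleomycin by 1.54 on the log2 scale (SE 0.35, adjusted p = 0.0132), the 1 CAP gene called. Of all measured probe sets limma called 2.22% as rising and 4.62% as falling.

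PR-1-LIKE (AT2G19990) was at 30.7 in ku80 with bleomycin and 26.1 in ku80 without it, against 62.6 in wild type with bleomycin and 29.3 in wild type without it, and was not called (adjusted p = 0.151 in limma). Only the treated wild type array stood clear of the floor for it. AT5G66590 ranged from 28.1 to 46.6 and was not called either. Of 6 listed type 6 inhibitor genes 3 were named, and AT2G38870 was the 1 measured, while AT2G38900 and AT3G46860 stayed under the floor on all arrays, at most at 7.53 and 6.27. PR1 and its close relative PRB1 (AT2G14580) were not analysed here.

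Of the other pathogenesis-related genes listed, 8 of 16 were named and 5 measured, all 5 of them of the thaumatin-like type 5. OSM34, which encodes an osmotin-like protein, was at 2391 in ku80 with bleomycin and 2711 in ku80 without it, against 2129 in wild type with bleomycin and 881 in wild type without it. As for AT4G33720 and AT2G38870, untreated wild type was the low array and untreated ku80 the high one, with a difference of 3.08-fold. OSM34 was not called for bleomycin (0.55, SE 0.53, adjusted p = 0.625 in limma).

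The thaumatin-like genes ATLP-1, AT2G28790 and AT4G38660 behaved otherwise: limma called all 3 as falling with bleomycin, with effects of -2.31, -2.02 and -2.63 on the log2 scale (adjusted p = 0.000627, 0.00115 and 0.000334). Over all measured probe sets the share called as falling was 4.62%. AT4G38660 was under the floor on both bleomycin arrays (5.02 in ku80 and 14.2 in wild type), so the size of its effect depends on the floor. ATLP-1 was at 24.8 in ku80 with bleomycin, under the floor, and 134 in ku80 without it, against 28.8 in wild type with bleomycin and 147.5 in wild type without it. Their differences between ku80 and wild type without bleomycin were -0.14, 0.24 and -0.81, none of them 2-fold. AT4G36010, the other measured one, was at 101 to 143 and was not called.

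Few signalling genes were measured. SAG101, a partner of EDS1 in defence and the 1 gene of 20 on the salicylic acid list with a named probe set, was at 137 in ku80 with bleomycin and 73.2 in ku80 without it, against 262 in wild type with bleomycin and 51.6 in wild type without it. It was higher with the drug in both genotypes and lower in ku80 than in wild type under the drug. limma called it as rising with bleomycin (1.62, SE 0.36, adjusted p = 0.0115).

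Of 17 jasmonate and ethylene genes 4 were named and measured, and limma called PDF1.2b and THI2.1 as falling with bleomycin (adjusted p = 0.00706 and 0.0375). THI2.1 was under the floor on both bleomycin arrays (9.74 in ku80 and 15.2 in wild type), so the size of its fall depends on the floor. PDF1.2, a defensin gene, was at 64.6 in ku80 with bleomycin and 756 in ku80 without it, against 142 in wild type with bleomycin and 72.7 in wild type without it. It shared with AT4G33720 the high untreated ku80 array and the opposite responses, but its treated ku80 array was below treated wild type. The probe set of PDF1.2b can also bind related transcripts, so its values may not be separate from those of PDF1.2. EIN3, a transcription factor of ethylene signalling, stayed between 293 and 375. Over the 19 measured genes of the 6 family, PR and signalling lists other than the 3 genes, 3 (OSM34, PDF1.2 and PDF1.2b) reached 2-fold in untreated ku80 over untreated wild type and 0 were at least 2-fold lower, where the shares of all measured probe sets were 2.53% and 2.09%. The median of these 19 was -0.07 on the log2 scale. Only 8 of the 19 lay above the floor on all 4 arrays, and the floor can limit the differences of the rest. With bleomycin, 0 of the 19 were at least 2-fold higher in ku80 and 3 at least 2-fold lower, against 1.87% and 2.35% of all measured probe sets, and the median was -0.12. limma called 2 of the 19 as rising with bleomycin and 5 as falling, against 2.22% and 4.62% of all measured probe sets, with a median effect of -0.22. These counts give values of few genes and do not describe the hormone pathways as a whole.

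**Figure D4:**
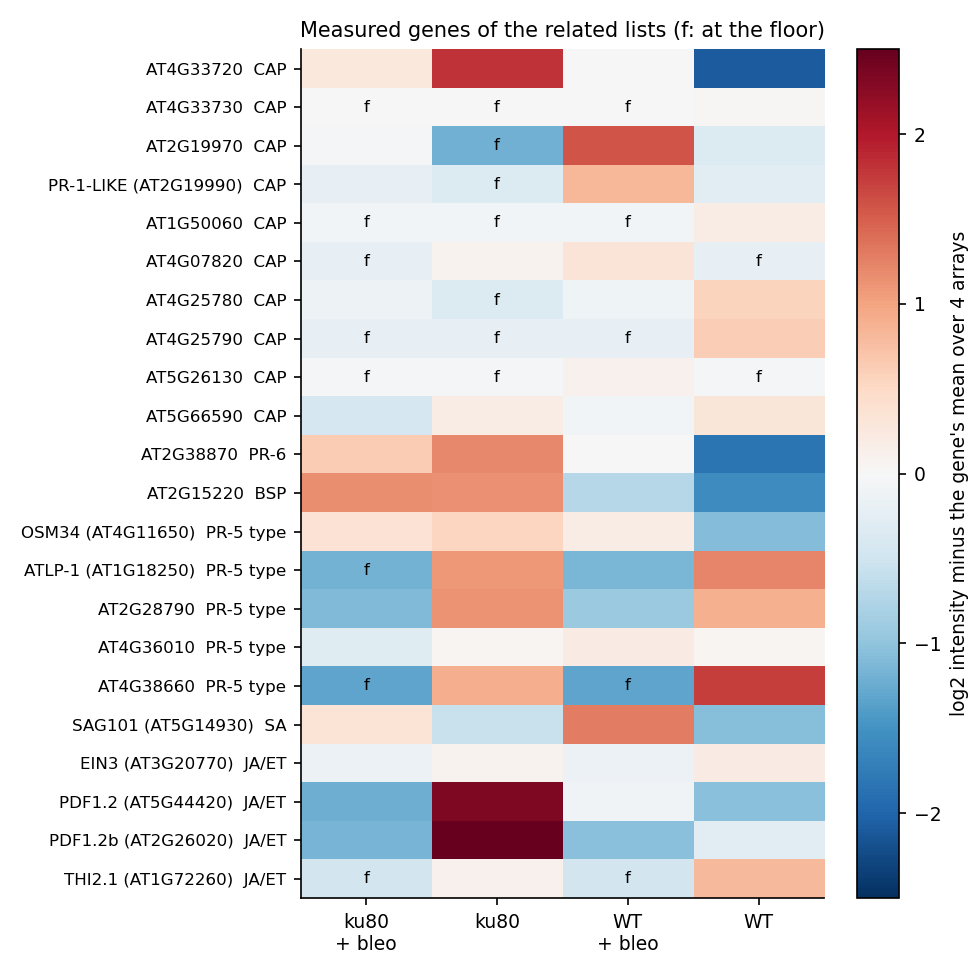
Log2 intensity minus the gene's own mean over the 4 arrays for the 22 measured genes of the 6 family, PR and signalling lists (BSP, basic secretory protein; SA, salicylic acid; JA/ET, jasmonate and ethylene; WT, wild type; bleo, bleomycin), with f where the value is at the floor. AT4G33720, AT2G38870, AT2G15220 and OSM34 are lowest in untreated wild type, while ATLP-1, AT2G28790 and AT4G38660 are low on both bleomycin arrays.

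Likeness between profiles was measured as the root mean square difference of log2 values over the 4 arrays after each profile was centred on its mean, among 6320 named probe sets with every array above the floor. Nearest to AT4G33720 were AT1G33055 (0.37), AT2G38870 (0.37), CHI (AT2G43570, 0.39), which is annotated as a putative chitinase, AT2G41730 (0.46) and AT5G38900 (0.50). AT4G33720 differed from each of these by its larger difference between the 2 ku80 arrays. CHI was at 226 in ku80 with bleomycin and 365 in ku80 without it, against 213 in wild type with bleomycin and 35.1 in wild type without it.

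AT2G38870 had closer matches: AT1G33055 (0.11), AT2G41730 (0.17), AT5G38900 (0.18), YLS5 (AT2G38860, 0.23) and AT5G42830 (0.24). AT1G33055 was at 338 in ku80 with bleomycin and 507 in ku80 without it, against 254 in wild type with bleomycin and 57.4 in wild type without it. Each of its 4 values lay in the same place in the order as for AT2G38870.

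AT2G15220 had no match as near. Its nearest was AT2G41730 (0.36), whose probe set can also bind related transcripts, then AT5G01350 (0.45), AT2G38870 (0.47), AT5G42830 (0.49) and YLS5 (0.49). AT5G01350 shared its split by genotype, at 367 in ku80 with bleomycin and 351 in ku80 without it, against 157 in wild type with bleomycin and 113 in wild type without it. Among the 3 genes, AT4G33720 and AT2G15220 were least alike (0.71). Profiles over 4 arrays hold little information, and the genes were chosen for the difference between genotypes, so likeness here is a description.

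**Figure D5:**
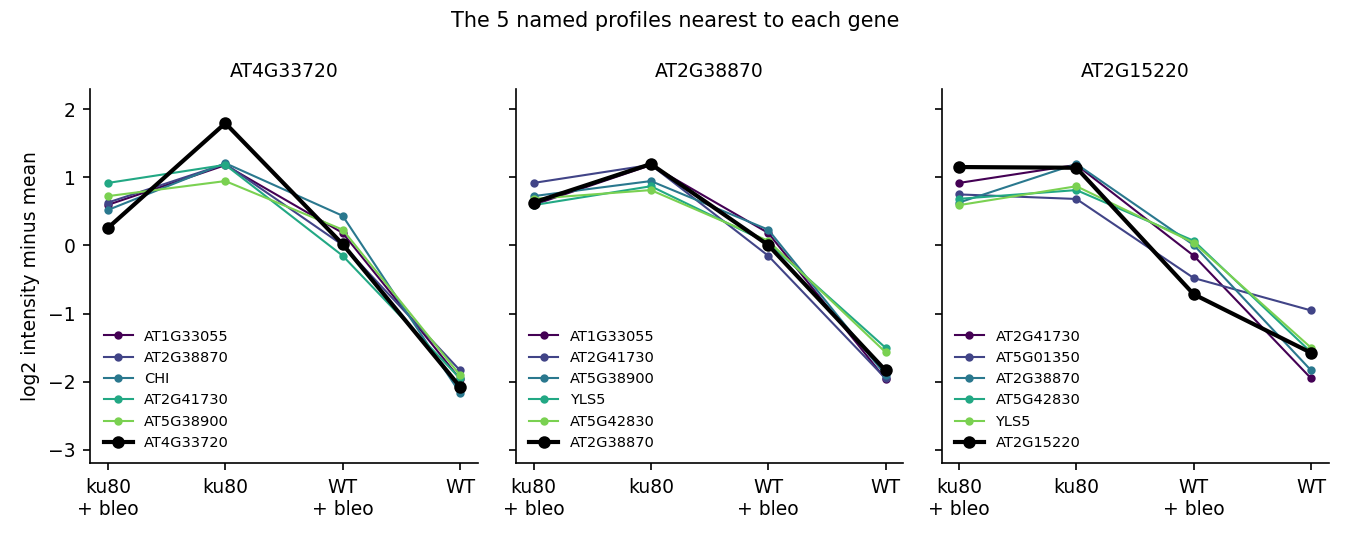
Log2 intensity minus the mean over the 4 arrays for each of the 3 genes (black) and the 5 named genes with the nearest profiles (colours). The lines around AT2G38870 nearly coincide (0.11 to 0.24), while AT4G33720 exceeds its neighbours in untreated ku80 and AT2G15220 lies below all 5 of its neighbours in wild type with bleomycin.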

How the data were processed

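The deposited table holds a linear intensity for every probe set on every array, already brought by the authors to a common level: the mean after trimming 2% at each end was 100.0 on each array. The summarisation software and its background correction are not given in the sources used here. Of 22810 probe sets 64 controls were set aside. Arrays were scaled by median ratios to their geometric mean, using the upper 50% of probe sets by brightness (factors 0.977 to 1.04). Scaled values were floored at their 40th percentile before the log2. The number of arrays limits the precision. Names came from the platform annotation and a RefSeq gene table (TAIR10.1): 13513 had 1 gene, 503 several, 8730 were unnamed here, and 13436 of the 13513 matched the gene table. A gene with several probe sets was read from the brightest.

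Bleomycin was tested with limma 3.58.1 in R 4.3.3 (additive model with genotype, intensity trend, Benjamini-Hochberg adjustment at 0.05), with 2 arrays per level, 1 residual degree of freedom and 15.9 prior ones. Its p-values rest on spread between these arrays only. The gene's own spread enters with the 1 residual degree of freedom. The spread of other probe sets of similar intensity enters with the 15.9 prior ones. Both include any real difference between the responses. The fit was tested on simulated data. Members and lists were chosen with earlier results of these data known. Named genes were the 3 members, measured genes of the lists, and the 5 nearest profiles per member. Alternatives were the deposited scale, quantile normalization, floors at the 20th and 60th percentiles, log2(value + 16) without a floor, a 3-fold threshold, no intensity trend, genotype left out and, chosen after seeing the data, scaling on 18 spike-in probe sets. Promoter motifs were not analysed here.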

Additional observations from a re-analysis of the deposited data

Results flagged for a closer look

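In 2 of the 3 genes the arrays with bleomycin moved in opposite directions in the 2 genotypes, higher in wild type and lower in ku80. The log2 response in ku80 minus that in wild type was -3.63 at AT4G33720 and -2.41 at AT2G38870. Of all measured probe sets 15.7% had responses of these signs. The genes were chosen as high in ku80, and each response shares an array with the untreated ku80 minus wild type difference. The choice thus favours these signs. The fall of AT2G38870 in ku80 was small, at -0.57 on the log2 scale and -0.15 with spike-in scaling. The difference between the responses was not tested, since each group is 1 array.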

How the results depend on the processing

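The genotype term of the additive fit already pairs the treated and untreated array of each genotype. With 1 array per group no further pairing was possible. For the same reason no array could be left out. Of 90 differences of the 3 genes under the alternatives, 81 moved by less than 1.5-fold. The 9 that moved by more all came with spike-in scaling. Without bleomycin, ku80 minus wild type was then 2.94 at AT4G33720, 2.10 at AT2G38870 and 1.79 at AT2G15220 on the log2 scale. The response in wild type was 1.28, 1.02 and 0.043, and the response in ku80 minus that in wild type was -2.41, -1.18 and 0.38. None of the 3 genes was called for bleomycin in limma under any alternative, with adjusted p between 0.832 and 1.00 for AT4G33720, 0.274 and 1.00 for AT2G38870, and 0.401 and 1.00 for AT2G15220.

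Counts over all measured probe sets depended on the settings, as the thresholds and floors by construction change how many values can pass. Main counts at least 2-fold higher and lower were 388 and 320 for ku80 against wild type without bleomycin, 286 and 361 with it, 844 and 1286 for bleomycin in wild type, and 382 and 861 in ku80. In the same order, a 3-fold threshold gave 173 and 85, 31 and 94, 214 and 344, and 118 and 234. Spike-in scaling gave 141 and 6005, 855 and 173, 165 and 5653, and 1219 and 348. A floor at the 20th percentile gave 651 and 585, 599 and 709, 1550 higher for bleomycin in wild type, and 679 and 1337 in ku80. A floor at the 60th percentile gave 254 and 160 without bleomycin, 141 higher with it, 677 lower for bleomycin in wild type, and 243 and 541 in ku80. The additive fit called 340 as rising and 708 as falling in limma. Quantile normalization gave 74 and 101, and no intensity trend 146 and 323. Leaving genotype out gave 0 and 0 in limma, with 1126 and 1551 at an unadjusted p under 0.05. Spike-in scaling gave 0 and 0, with 37 and 99. The cause of the changes in the fit was not tested.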

Other observations

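The chromosomal neighbours of the 3 genes were looked at after the values were seen. They gave 1 gene with the order of arrays of AT4G33720 and AT2G38870. YLS5 (AT2G38860), named for its expression in yellowing leaves, is the gene next to AT2G38870. It was already among the nearest profiles of AT2G38870 and AT2G15220, so its likeness is not a separate observation. It was at 512 in ku80 with bleomycin and 621 in ku80 without it, against 349 in wild type with bleomycin and 119.8 in wild type without it, in the same order of arrays as AT2G38870. Of the 18 protein-coding genes within 3 places on either side, 12 were named on the array and 8 of these were measured. YLS5 was the 1 of these 8 that reached 2-fold in untreated ku80 over untreated wild type, and 0 were at least 2-fold lower, where the shares of all measured probe sets were 2.53% and 2.09%. AT4G33710 and AT4G33730, the CAP genes on either side of AT4G33720, did not share its pattern. AT4G33710 stayed under the floor on all arrays (at most 23.3). AT4G33730 was at 28.9 in wild type without bleomycin, just above the floor, and at most 5.09 elsewhere.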
